A study of Homo sapiens with 6 samples.

Results

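The plasminogen activator system was examined in RNA sequencing libraries of cells labelled A549, a human line from a lung adenocarcinoma, that were given rhTR11B or phosphate-buffered saline (PBS). The 7 members were listed by name. They were the activators PLAU and PLAT, the receptors PLAUR and PLGRKT, and the serpins SERPINE2, SERPINB2 and SERPINB8. Of these, 6 had a row in the deposited tables of 19876 gene symbols and all 6 were among the 13567 genes that could be tested, and SERPINB2 was not analysed here. There were 3 libraries of cells given rhTR11B and 3 of cells given PBS as the negative control, all labelled WT and all grown in medium with serum. The name rhTR11B is not written out in the labels, which also give no dose and no time. TR11B stands in protein databases for osteoprotegerin, the product of TNFRSF11B and a soluble decoy for ligands of the TNF family. The libraries are called biological replicates, but nothing says that they came from separate cultures, and the p-values then cover only a spread that may be technical.

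Plasmin is a broad secreted protease that cuts fibrin and proteins of the pericellular matrix. It is made from the inactive plasminogen by urokinase, encoded by PLAU, or by tissue plasminogen activator, encoded by PLAT. Urokinase is held at the cell surface by the lipid-anchored receptor PLAUR, and plasminogen by surface proteins with C-terminal lysines such as PLGRKT. Some serpins stop the activators by trapping them in a covalent complex. In lung carcinoma cells the system is known for its part in pericellular proteolysis and cell movement.

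Depth was slightly lower with rhTR11B, with 36315751 to 36992958 counts per rhTR11B library and 37203313 to 38148838 per PBS library. The 13 mitochondrially encoded genes took 8.75%, 7.88% and 10.4% of counts in rhTR11B replicates 1 to 3 and 7.71%, 6.63% and 7.31% in PBS replicates 1 to 3. The 82 genes named as cytosolic ribosomal proteins took 4.57%, 4.57% and 3.85% with rhTR11B and 5.00%, 5.10% and 5.15% with PBS. For each share the two-sided exact permutation p was 0.1, the smallest that 3 against 3 libraries allow, and the part of these shares in the results below was not tested. Among epithelial markers, the keratins KRT8 and KRT18 were high, at 31538 to 36616 and 23189 to 26955 counts over the 6 libraries. EPCAM had at most 10 counts in any library, and CDH1 (E-cadherin), which A549 is known to express, had at most 1 count. Of genes looked up after their values were seen, the aldo-keto reductase genes AKR1C2 and AKR1C3, known as abundant in A549, had at most 1 and at most 3 counts. CDKN2A, which lies in a region known to be deleted from both chromosomes of A549, had 1593 to 2030 counts with rhTR11B and 2036 to 2310 with PBS. The libraries therefore go against the label at these genes, in both groups, and they are called cells labelled A549 below.

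In the cells given rhTR11B, urokinase, its receptor and the inhibitor SERPINE2 stood higher by like amounts, at 30.2% above PBS for PLAU, 33.04% for PLAUR and 32.5% for SERPINE2. The other 3 members did not pass the test: SERPINB8 and PLGRKT stood at -3.24% and -0.83% relative to PBS, and PLAT had few counts. By edgeR's quasi-likelihood test with a Benjamini-Hochberg adjusted p under 0.05, 3 of the 6 tested members rose and 0 fell. Over all 13567 genes 2.92% were called higher, 0.678% lower and 3.6% in either direction. At an unadjusted p under 0.05 the same test gave 3 of the 6 members, against 24.2% of all tested genes. The log2 fold change was above 0 for 4 of the 6 members and for 50% of all tested genes, with medians of 0.39 and 0.00.

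The sequence just upstream of an annotated start is shown for the rising genes because PLAU and PLAUR are textbook targets of AP-1 and Sp1 factors. It is also shown for SERPINB8, which did not pass the test. The RefSeq promoter table, on GRCh38.p14, holds 250 bases before each annotated start, with 2 windows each for PLAU and SERPINE2. The window nearest to a principal GENCODE 29 start was taken. The parts below lie outside the gene's own exons in GENCODE 29, or are sites of 30 bases. Capitals mark GGGCGG, the Sp1 motif, or its reverse complement in the PLAU and SERPINE2 stretches. In the 30-base sites they mark TGANTCA, a loose form of the AP-1 motif in which N is any base.
PLAU, plus strand, chr10:73910882-73911103: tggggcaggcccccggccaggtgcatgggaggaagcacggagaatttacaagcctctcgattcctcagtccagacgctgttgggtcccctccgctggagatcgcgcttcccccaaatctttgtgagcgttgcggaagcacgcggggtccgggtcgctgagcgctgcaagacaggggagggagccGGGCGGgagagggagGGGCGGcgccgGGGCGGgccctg
SERPINE2, minus strand, chr2:224038805-224038890: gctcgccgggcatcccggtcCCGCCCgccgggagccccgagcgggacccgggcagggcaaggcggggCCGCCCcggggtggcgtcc
PLAUR, minus strand, chr19:43670337-43670366: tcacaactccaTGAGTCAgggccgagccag
SERPINB8, plus strand, chr18:63969885-63969914: ggagtcaaacgTGAATCAacggtgaaaaaa
SERPINB8, plus strand, chr18:63970042-63970071: tcgaacggttcTGAGTCAtctgccggaagc

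On both strands of the full 250 bases, GGGCGG matched 3 times upstream of PLAU and 2 times upstream of SERPINE2, and 0 times upstream of PLAUR, SERPINB8 and PLGRKT, against at least 1 match in 42.6% of the 35114 windows in the table. TGANTCA matched 1 time upstream of PLAUR, 2 times upstream of SERPINB8 and 0 times upstream of PLAU, SERPINE2 and PLGRKT, against 6.57% of all windows. Sequence beyond the 250 bases was not searched, and the part of these letters in the change of any gene was not tested. CCAAT matched 1 time upstream of SERPINB8 and 2 times upstream of PLGRKT, and TATAAA 2 times upstream of SERPINB8, with 0 matches of either for PLAU, PLAUR and SERPINE2, against 32% and 10.7% of all windows. The 2 TATAAA matches overlap each other on opposite strands. The PLAU, SERPINE2 and PLGRKT windows lie inside the gene spans given below, not before their outermost starts. The SERPINE2 window lies 679 bases from the start of the principal GENCODE 29 transcript, so it may not be the start used in these cells. The whole PLAUR window lies within exons of PLAUR transcripts in GENCODE 29, 181 bases from the principal start, and the SERPINB8 site at 63970042 also lies outside the exon-free part of its window. These matches are letters in a window and not measured sites.

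PLAU (chromosome 10, 73908832 to 73917494, plus strand, 11 exons in a principal transcript) encodes urokinase, the secreted serine protease that cleaves plasminogen. It had 916, 949.7 and 1139.9 CPM (counts scaled to library size, itself scaled by TMM) in rhTR11B replicates 1 to 3, against 834, 722 and 753 CPM in PBS replicates 1 to 3. All 3 rhTR11B libraries lay above all 3 PBS libraries, with rhTR11B replicate 3 the highest and the nearest pair being rhTR11B replicate 1 and PBS replicate 1. The means were 1002 ± 121 CPM with rhTR11B and 769.7 ± 57.9 CPM with PBS (SD, n = 3 each), a log2 fold change of 0.38 (95% interval 0.21 to 0.55, SE 0.08, edgeR adjusted p = 0.0196). Raw counts of 33385 to 40621 with rhTR11B and 27800 to 31203 with PBS leave little counting error, and the estimated variation between libraries of a group was 6.85%. The lncRNA gene C10orf55 lies across PLAU on the minus strand, and without a stated strand setting their reads cannot be told apart. C10orf55 itself had 127 to 140 counts with rhTR11B and 107 to 112 with PBS, together 0.369% of those of PLAU (log2 fold change 0.35, edgeR adjusted p = 0.190).

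PLAT (chromosome 8, 42174718 to 42207565, minus strand, 15 exons) encodes tissue plasminogen activator, the activator best known from blood clot lysis. It had 29, 28 and 42 counts in rhTR11B replicates 1 to 3 and 34, 13 and 19 counts in PBS replicates 1 to 3. The groups overlapped, since PBS replicate 1 lay above rhTR11B replicates 1 and 2. Exact Poisson 95% intervals, which cover counting error only, were 18.6 to 40.5 counts for the lowest and 30.3 to 56.8 for the highest rhTR11B library, and 6.92 to 22.2 for the lowest and 23.5 to 47.5 for the highest PBS library. The last 2 do not overlap, so the PBS libraries differed by more than counting error, with an SD of 50.6% of the mean. The log2 fold change of 0.64 had a 95% interval of -0.13 to 1.42 and did not pass (edgeR adjusted p = 0.298), so at this depth neither no change nor a doubling could be told from the estimate. It was 1.11 without PBS replicate 1 and 0.37 without PBS replicate 2.

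**Figure D1:**
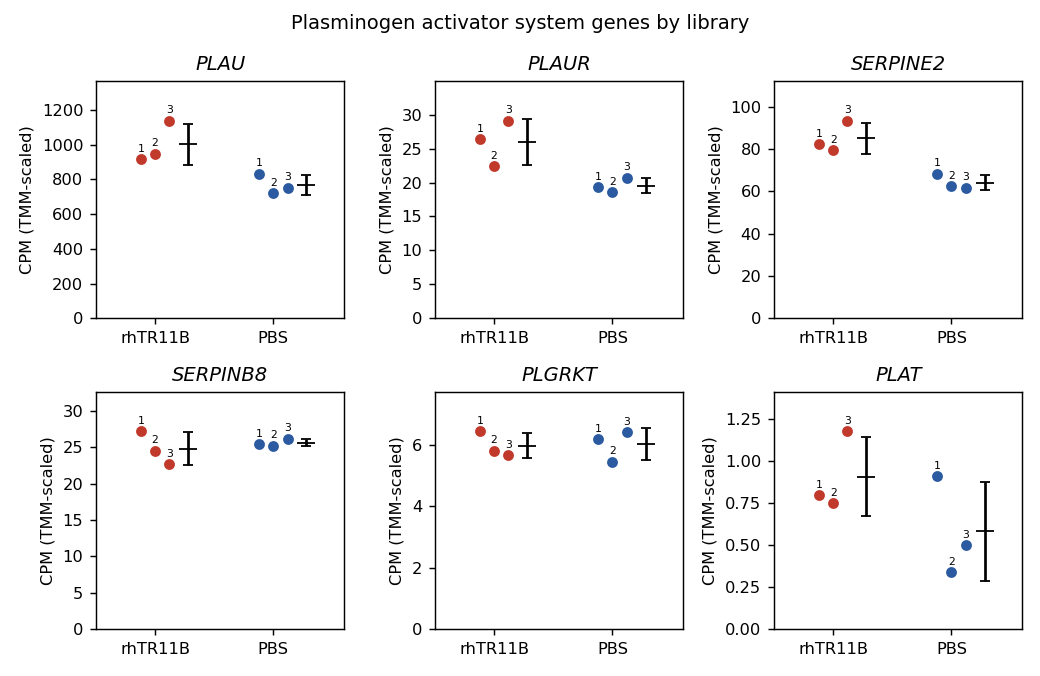
CPM on TMM-scaled library sizes for the 6 tested members, in rhTR11B (red, left) and PBS (blue, right) libraries, numbered by replicate; the black bar is the mean with its SD (n = 3). The groups are apart for PLAU, PLAUR and SERPINE2 and overlap for SERPINB8, PLGRKT and PLAT.

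PLAUR (chromosome 19, 43646095 to 43670169, minus strand, 7 exons) encodes the urokinase receptor, which binds both the enzyme and its proenzyme. It had 26.3, 22.5 and 29.1 CPM in rhTR11B replicates 1 to 3, against 19.3, 18.6 and 20.7 CPM in PBS replicates 1 to 3. The groups did not overlap, and rhTR11B replicate 2 came nearest to the PBS libraries. Means were 26.0 ± 3.35 CPM with rhTR11B and 19.5 ± 1.09 CPM with PBS (SD, n = 3 each), and the log2 fold change was 0.41 (95% interval 0.22 to 0.60, SE 0.09, edgeR adjusted p = 0.0239). The spread among rhTR11B libraries, 12.9% of the mean, was wider than that among PBS libraries, 5.57%.

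PLGRKT (chromosome 9, 5357971 to 5438377, minus strand, 6 exons) encodes a plasminogen receptor that spans the membrane. It had 6.45, 5.82 and 5.67 CPM in rhTR11B replicates 1 to 3 and 6.20, 5.46 and 6.43 CPM in PBS replicates 1 to 3, and the groups overlapped through their whole range. Its log2 fold change was -0.01 (95% interval -0.28 to 0.25, edgeR adjusted p = 0.967). That interval does not reach the estimates of PLAU and PLAUR, although no test of the difference between genes was run.

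SERPINE2 (chromosome 2, 223975045 to 224039286, minus strand, 9 exons) encodes protease nexin-1, a secreted serpin that inhibits urokinase, tissue plasminogen activator, plasmin and thrombin. It had 82.2, 79.4 and 93.5 CPM in rhTR11B replicates 1 to 3, against 68.4, 62.4 and 61.7 CPM in PBS replicates 1 to 3. The groups lay apart, again with rhTR11B replicate 3 the highest. Means were 85.0 ± 7.45 CPM with rhTR11B and 64.2 ± 3.65 CPM with PBS (SD, n = 3 each), a log2 fold change of 0.41 (95% interval 0.26 to 0.55, SE 0.07, edgeR adjusted p = 0.00561). It had the smallest adjusted p of the 6 members, with the smallest variation between libraries as fitted by edgeR, 5.99%. The SD was 8.76% of the mean among rhTR11B and 5.68% among PBS libraries.

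SERPINB8 (chromosome 18, 63970081 to 64019779, plus strand, 7 exons) encodes a serpin of the ovalbumin-like clade that lacks a classical secretion signal. It had 27.2, 24.6 and 22.7 CPM in rhTR11B replicates 1 to 3 and 25.5, 25.3 and 26.2 CPM in PBS replicates 1 to 3. The PBS libraries lay inside the range of the rhTR11B libraries, and here rhTR11B replicate 3 was the lowest of all. The log2 fold change was -0.05 (95% interval -0.21 to 0.12, edgeR adjusted p = 0.759), and its direction turned to 0.014 without rhTR11B replicate 3.

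The groups did not overlap for PLAU, PLAUR and SERPINE2, 3 of 6 members, each with rhTR11B higher. Over all tested genes 15.1% were apart in that direction and 29.1% in either. The 3 calls held without rhTR11B replicate 1, 2 or 3, although without replicate 3, which has the highest mitochondrial share, the log2 fold changes were 0.28 for PLAU, 0.32 for PLAUR and 0.33 for SERPINE2. Without PBS replicate 2 none of the members passed with edgeR (adjusted p = 0.165, 0.165 and 0.0702 for PLAU, PLAUR and SERPINE2), nor without PBS replicate 3 (0.151, 0.130 and 0.118), and PLAUR did not pass without PBS replicate 1 (0.0608). The estimates in those fits were 0.34 to 0.46, so the sizes stayed near those of the full set. The number of calls over all genes fell as well, to 18 higher genes without PBS replicate 2 and 9 without PBS replicate 3, against 396 with all libraries. On the deposited FPKM values, limma on log2(FPKM + 1) for genes averaging at least 1 FPKM left SERPINE2 called (adjusted p = 0.0403) but not PLAU (0.0742) or PLAUR (0.0670), and without that filter it called none of the 3 (0.246 for SERPINE2). With the mitochondrially encoded genes taken out of the table the 3 log2 fold changes were 0.38, 0.42 and 0.41.

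**Figure D2:**
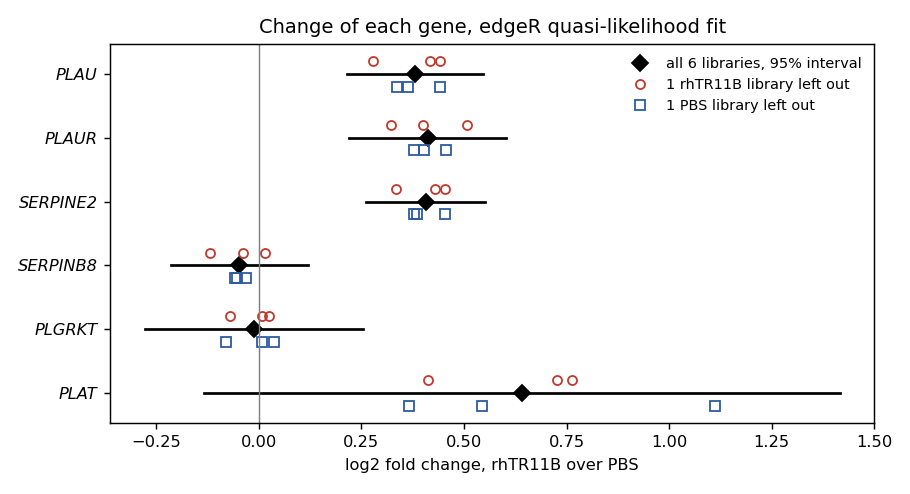
Log2 fold change of rhTR11B over PBS for each tested member: the diamond and line give the estimate and its 95% interval with all 6 libraries, and open symbols the estimates with 1 rhTR11B (red circles) or 1 PBS library (blue squares) left out. The intervals of PLAU, PLAUR and SERPINE2 lie above 0, and the PLAT interval, from -0.13 to 1.42, is the widest.

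Levels between genes were compared per length, as FPKM (fragment counts scaled by gene length and library size) from the authors' deposited table. PLAU stood far above the rest, with 359 ± 39.6 FPKM in rhTR11B and 279 ± 20.6 FPKM in PBS libraries, rank 129 from the top among the 13567 tested genes by mean FPKM. SERPINE2 followed with 31.1 to 35.6 FPKM with rhTR11B and 23.9 to 26.7 FPKM with PBS, higher than 84.4% of tested genes. Around the middle of the tested genes lay PLAUR, with 8.21 ± 0.948 FPKM in rhTR11B and 6.24 ± 0.306 FPKM in PBS libraries, and SERPINB8, with 5.22 ± 0.504 and 5.46 ± 0.0729 FPKM in the same order. PLGRKT had 3.66 ± 0.261 FPKM with rhTR11B and 3.73 ± 0.292 FPKM with PBS. PLAT, at 0.247 to 0.378 FPKM with rhTR11B and 0.112 to 0.298 FPKM with PBS, was higher than 7.69% of tested genes. No neighbours in this order overlapped in FPKM within a group, so urokinase transcripts dominated the activators at 1068 to 1398 times the PLAT level per length with rhTR11B and 1014 to 2362 times with PBS.

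**Figure D3:**
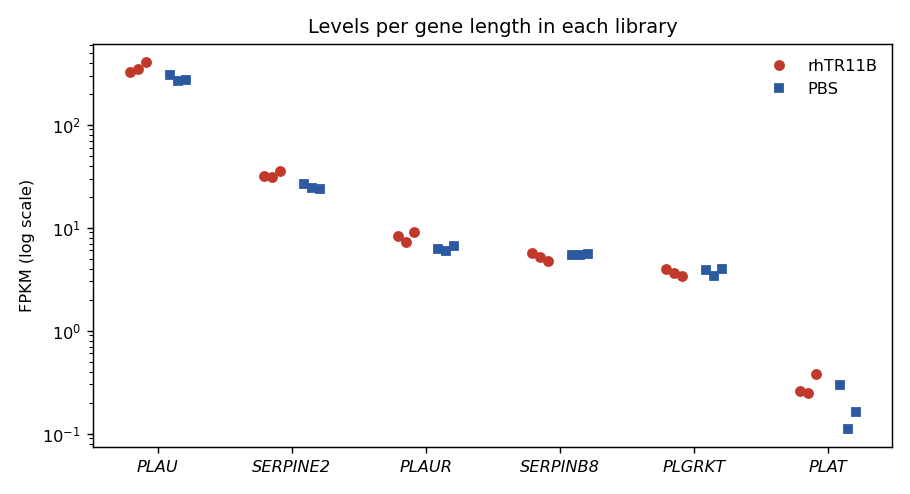
FPKM on a log axis in each library for the 6 tested members, with rhTR11B libraries as red circles and PBS libraries as blue squares left to right within a gene. PLAU lies about an order of magnitude above SERPINE2, and PLAT lies below 1 FPKM in every library.

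PLAU had like mean ratios to PLAUR and to SERPINE2 in both groups, which follows from the like fold changes of these genes. Single libraries varied around these means. Per length, PLAU stood at 39.4, 47.9 and 44.4 times PLAUR in rhTR11B replicates 1 to 3 and at 49.1, 44.1 and 41.2 times in PBS replicates 1 to 3, with overlapping libraries. The ratio of PLAU to SERPINE2 was 10.9 ± 0.512 with rhTR11B and 11.1 ± 0.338 with PBS (SD, n = 3 each), again with overlap. The secreted inhibitor SERPINE2 stood at 5.53, 5.93 and 7.56 times SERPINB8 in rhTR11B replicates 1 to 3 and at 4.92, 4.53 and 4.31 times in PBS replicates 1 to 3, with no overlap and rhTR11B replicate 3 the highest. These ratios of levels were chosen with the values known and carry no test.

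**Figure D4:**
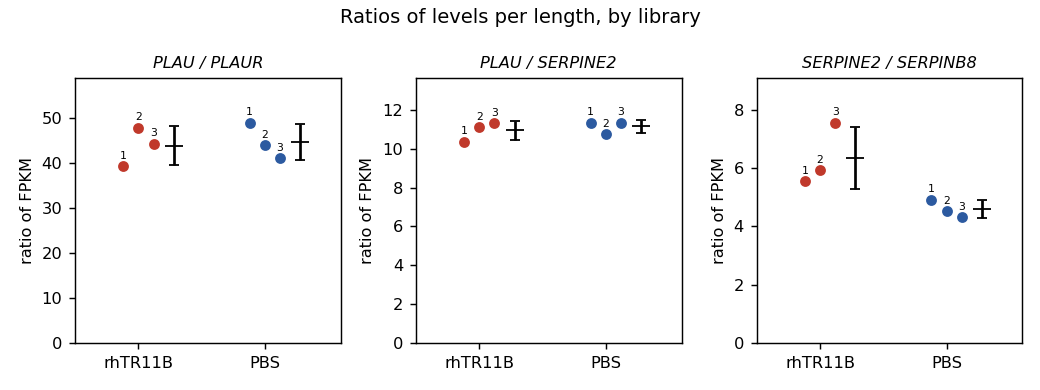
Ratios of FPKM between pairs of genes in each library, rhTR11B (red, left) and PBS (blue, right), numbered by replicate, with the mean and SD in black (n = 3). PLAU over PLAUR and PLAU over SERPINE2 overlap between the groups, at means of 43.9 and 44.8 and of 10.9 and 11.1, and SERPINE2 over SERPINB8 lies apart, at means of 6.34 and 4.59.

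Among other genes that take part in the handling of plasminogen, plasminogen itself (PLG) was not analysed here. F12, the clotting factor XII, was the 1 tested gene of the circulating regulators (log2 fold change 0.15, edgeR adjusted p = 0.451), and the plasmin inhibitor SERPINF2, the adhesion protein VTN and SERPINA5 were too low to test, with at most 15, 3 and 1 counts in any library. Of 6 cell-surface proteins that bind plasminogen, 0 passed with edgeR, against 3.6% of all tested genes in either direction. At an unadjusted p under 0.05 there were 2, against 24.2% of all tested genes. DESeq2 called 1, RUVBL2, lower, as it did 346 of the 13567 genes. The log2 fold changes of the 6 had a median of -0.10. The annexin ANXA2 stood at 0.05 (edgeR adjusted p = 0.614) and its partner S100A10 at -0.06 (0.596), the pair that carries tissue plasminogen activator and plasminogen together. The glycolytic enzyme ENO1, also a surface plasminogen binder, stood at -0.14 (edgeR adjusted p = 0.204), HMGB1 at -0.13 (0.254), KRT8 at -0.03 (0.828) and RUVBL2 at -0.19 (0.0621). For ENO1 and RUVBL2 all rhTR11B libraries were below all PBS libraries. Over all tested genes 14% were apart in that direction and 29.1% in either. ENO1 averaged 3249 ± 93.6 CPM with rhTR11B and 3579 ± 130 CPM with PBS (SD, n = 3 each).

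Among receptors that take up the urokinase-inhibitor complex, integrins and other partners of PLAUR, 7 of 12 tested genes rose, 0 fell and 5 did not pass, with a median log2 fold change of 0.28 against 0.00 over all tested genes. Over all tested genes 2.92% were called higher and 0.678% lower, and this list was chosen with earlier results of these data known. LRP1, the endocytic receptor that clears urokinase bound to its inhibitor together with PLAUR, averaged 129 ± 12.5 CPM with rhTR11B and 92.6 ± 7.36 CPM with PBS (SD, n = 3 each; log2 fold change 0.48, SE 0.07, edgeR adjusted p = 0.00311). The integrin chains ITGA5, ITGB3 and ITGAV rose by 0.36, 0.32 and 0.29 (edgeR adjusted p = 0.0145, 0.0243 and 0.0276). The other calls were ITGA3, IGF2R, which binds PLAUR, and MRC2, a collagen receptor that forms a complex with PLAUR, named after their values were seen, at 0.29, 0.23 and 0.28. The 5 that did not pass were the growth factor receptor EGFR at 0.22, the uptake receptor SORL1 at 0.28, the integrin chains ITGB1 at 0.21 and ITGB5 at 0.17, and the caveolar protein CAV1 at 0.07 (edgeR adjusted p = 0.0550, 0.0560, 0.0711, 0.121 and 0.503). Without PBS replicate 2, 1 of the 7 still passed and without PBS replicate 3 none did (edgeR, adjusted p under 0.05), while the 7 genes' median log2 fold changes were 0.30 and 0.29 in those fits, against 0.29 with all libraries.

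Proteases listed for the processing of urokinase, and their inhibitors, included 6 tested genes, of which 4 rose and 0 fell (median log2 fold change 0.30). Whether each of them activates pro-urokinase was not examined. For both lists of this paragraph the shares over all tested genes were 2.92% called higher and 0.678% lower. The cathepsins CTSL and CTSB, lysosomal cysteine proteases that can cleave pro-urokinase, rose by 0.35 and 0.27, the aspartic protease CTSD by 0.31 and SPINT2, a Kunitz inhibitor of membrane serine proteases, by 0.29 (edgeR adjusted p = 0.0187, 0.0438, 0.0355 and 0.0350). The serine protease genes PRSS22 and PRSS23 stood at 0.45 and 0.20 and did not pass (edgeR adjusted p = 0.104 and 0.114). ST14 (matriptase) had at most 4 counts in any library. Of 8 tested substrates and activation targets of plasmin 4 rose and 0 fell, with a median of 0.24: the laminin chains LAMB3 at 0.42 and LAMA5 at 0.34, from adhesion proteins of basement membranes, the membrane protease MMP14 at 0.41 and fibronectin FN1 at 0.78 (edgeR adjusted p = 0.0211, 0.0239, 0.00264 and 0.0257). A further laminin chain, LAMA3, stood at 0.02, TGFB1 at 0.15, THBS1 at 0.13 and F3 at 0.05. None of these passed (edgeR adjusted p = 0.917, 0.188, 0.255 and 0.930), and the groups overlapped for each. MMP14 averaged 152 ± 8.74 CPM with rhTR11B and 114.5 ± 4.34 CPM with PBS (SD, n = 3 each). FN1 was low, at 5.38 ± 1.08 CPM with rhTR11B and 3.13 ± 0.526 CPM with PBS, and did not pass without rhTR11B replicate 3 (edgeR adjusted p = 0.0562). The secreted pro-collagenases and stromelysins MMP1, MMP3, MMP9, MMP10 and MMP13, often named as targets of plasmin, had at most 26 counts in any library. Without PBS replicate 2 none of the 4 protease genes and 1 of the 4 plasmin targets passed with edgeR (adjusted p under 0.05), and without PBS replicate 3 none of either did.

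Of 7 other serpins tested, 1 rose and 0 fell, with a median log2 fold change of 0.43. For the lists of this paragraph the shares over all tested genes were 2.92% called higher and 0.678% lower. The call was SERPINA6, corticosteroid-binding globulin, with 18.4 ± 2.83 CPM in rhTR11B and 13.6 ± 1.35 CPM in PBS libraries (SD, n = 3 each; log2 fold change 0.43, edgeR adjusted p = 0.0368), and it did not pass without rhTR11B replicate 3 (0.0831) or without PBS replicate 1, 2 or 3 (0.0618, 0.193 and 0.151). SERPINA1, alpha-1-antitrypsin, stood at 0.73 (edgeR adjusted p = 0.0645), the collagen chaperone SERPINH1 at 0.32 (0.133) and the neuronal inhibitor of tissue plasminogen activator SERPINI1 at 0.43 (0.214). Of 6 tested relatives of PLAUR in the LY6 family, which share its 3-finger fold, 2 rose: CD59, an inhibitor of complement lysis, at 0.24 and LY6G5B at 0.29 (edgeR adjusted p = 0.0474 and 0.0479). Neither held without PBS replicate 1, 2 or 3 or with library size as the only scaling. LYPD3 stood at 0.77 (0.203) and LY6E at 0.12 (0.259). Of 14 tested AP-1 and ETS factors, the families known to bind the PLAU and PLAUR control regions, 0 passed with edgeR, 2 had an unadjusted p under 0.05, a smaller share than the 24.2% of all tested genes, and DESeq2 called 0. Their median was 0.01. The smallest p among them belonged to ETV5 at 0.18, ELF3 at 0.20, JUN at -0.11 and JUND at -0.08 (edgeR adjusted p = 0.130, 0.191, 0.339 and 0.600).

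**Figure D5:**
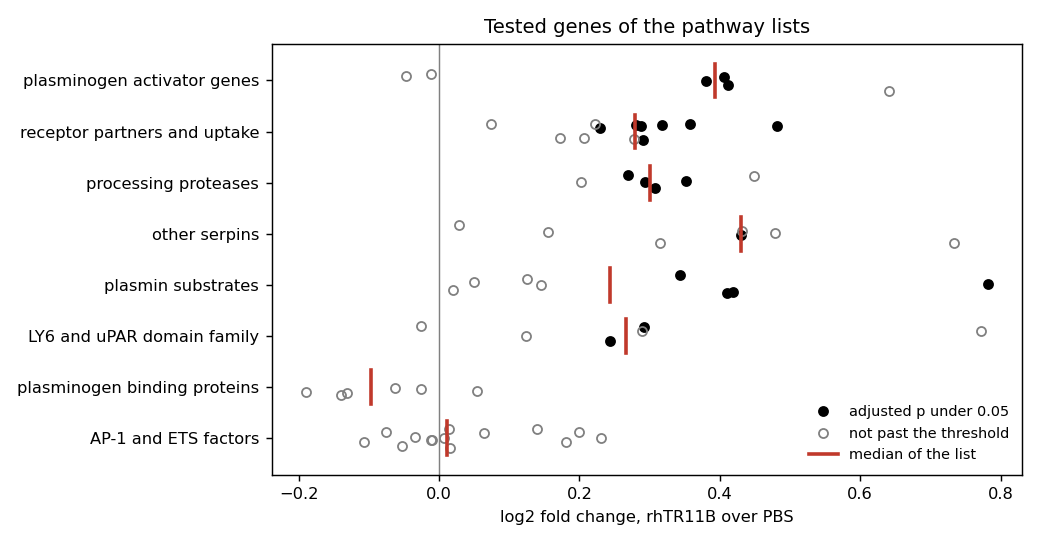
Log2 fold change of rhTR11B over PBS for the tested genes of each pathway list, filled where the edgeR adjusted p is under 0.05 and open otherwise, with the list median in red; vertical scatter is random. The medians of the receptor partners and plasmin substrates are 0.28 and 0.24, and that of the AP-1 and ETS factors is 0.01.

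As a description, the tested genes of at least 10 CPM whose log2 CPM followed PLAU most closely over the 6 libraries were TAPBP, TPP1, PEX14, EFNA1 and IGFBP4, with Pearson's r of 0.998 to 0.999. TPP1, EFNA1 and TAPBP rose, by 0.42, 0.39 and 0.32 (edgeR adjusted p = 0.0111, 0.0211 and 0.0284). The genes nearest to PLAUR were SDC1, CRIM1, ATF6, SLC25A14 and HGSNAT, with r of 0.989 to 0.993, of which SDC1 and ATF6 rose by 0.35 and 0.23 (edgeR adjusted p = 0.0180 and 0.0451). The 6 points of each correlation are the libraries of both groups, and the genes were picked for the highest r. TNFRSF11B, the gene that the name TR11B stands for in protein databases, had 270, 230 and 269 counts in rhTR11B replicates 1 to 3 and 289, 217 and 202 counts in PBS replicates 1 to 3 (log2 fold change 0.18, edgeR adjusted p = 0.479). Markers of other cells were low: of 7 fibroblast markers with a row 2 could be tested and 0 passed with edgeR (1 had an unadjusted p under 0.05), while DESeq2 called 1. Like 15.1% of all tested genes, COL1A1 stood apart with rhTR11B higher, at 138 to 203 counts with rhTR11B and 99 to 126 with PBS (log2 fold change 0.62, edgeR adjusted p = 0.0511). Its part in the results was not tested. Of the others, DCN and PDGFRB had at most 1 count in any library, and the summed level of the 7 was 5.42 to 7.22 CPM on unscaled library totals with rhTR11B and 3.47 to 5.03 with PBS, mostly COL1A1. The 4 endothelial markers with a row summed to at most 0.421 and the 3 blood cell markers to at most 0.578 such CPM in any library. In bulk samples fewer cells of a type and less RNA per cell cannot be told apart.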

How the data were processed

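Per the labels' protocols, TRIzol total RNA of 6 samples went into libraries made with a VAHTS Universal V6 kit. The authors deposited 1 table of counts and 1 of FPKM values by gene symbol. The submitters' processing notes list the tools DESeq2, fastp, HISAT, HTSeq and R 3.2.0 and the build GRCh38 without their roles, and for annotation and strand setting the entry is: not given in the sources used here. The deposited FPKM values equal count over length and library total for 100% of genes within a relative tolerance of 0.001. Genes kept by filterByExpr (minimum count 10) were tested with edgeR 4.0.16 in R 4.3.3: TMM scaling, group as the only term, quasi-likelihood test, Benjamini-Hochberg adjustment over 13567 genes. The SE is the log2 fold change over the square root of F. The step was tested on simulated data. limma 3.58.1 and DESeq2 1.42.0 served as alternatives. Coordinates are those of RefSeq on GRCh38.p14, which matched 18832 of 19876 symbols. The members and lists were chosen with earlier results of these data known. Named were the members, up to 4 genes per list with the smallest p, all plasminogen binders, TNFRSF11B and the 5 genes most like PLAU and PLAUR. Other genes of the lists were named after their values were seen. Some genes of the lists are not reported here and are left out of the list counts. The chi-square over degrees of freedom between 2 libraries of the same group was 5.32 to 26.1, so no library repeats another of its group. It was 23.1 and 26.1 for rhTR11B replicate 3 against replicates 1 and 2, and 5.32 between those 2. Among PBS libraries it was 5.80 to 9.51, so rhTR11B replicate 3 stood furthest from its group.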

Additional observations from a re-analysis of the deposited data

How the results depend on the processing

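PLAU, PLAUR and SERPINE2 kept a positive log2 fold change in all 17 alternative fits run for each, from 0.28 to 0.51. The 3 were called with DESeq2 size factors, library size alone, the Wald test of DESeq2, limma-voom, either count filter and without mitochondrially encoded genes. For genes averaging 1 FPKM or more, limma-trend called 1 member (SERPINE2), 62 higher and 21 lower genes with a pseudocount of 1, and 1 member, 64 higher and 22 lower with 0.1. Unfiltered, with a pseudocount of 1, it called 0 members, 0 higher and 0 lower, with 3073 genes at an unadjusted p under 0.05. With 1 library left out, 0 to 3 members, 9 to 903 higher and 3 to 427 lower genes were called, against 3, 396 and 92 with all. The Wald test called 761 higher and 346 lower genes, no low-count filter 940 and 483, and a mean of at least 5 CPM 205 and 26. The cause of these differences was not tested. Deviations from group means of same-numbered libraries correlated at -0.10, 0.05 and -0.01. With so few libraries this does not settle whether the labels' replicate numbers pair them. With the replicate number as a block 3 members, 774 higher and 252 lower genes were called, and 1 of 3 rhTR11B libraries correlated best with its own number. Directions that turned with 1 library left out all belonged to genes that did not pass: SERPINB8 from -0.12 to 0.014, PLGRKT from -0.079 to 0.036, S100A10 from -0.11 to 0.010, JUND from -0.14 to 0.029 and KRT8 from -0.048 to 0.0026. PLAT rests on 13 to 42 counts a library.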

Other observations

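Other genes that bear on the label of the cells were looked up after their values were seen. CDKN2B, the neighbour of CDKN2A, had 173 to 216 counts with rhTR11B and 198 to 234 with PBS. PAX8, a transcription factor of kidney, thyroid and reproductive tract epithelium, had 6295 to 7064 counts with rhTR11B and 6055 to 6721 with PBS. The intermediate filament gene VIM had 29776 to 32477 counts with rhTR11B and 32390 to 33878 with PBS. The epithelial keratin KRT19 had at most 5 counts in any library, while another, KRT7, was high at 12515 to 14960 counts over the 6 libraries. The groups overlapped for CDKN2B, PAX8, VIM and KRT19.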
